A study of Mus musculus with 24 samples.

Results

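CC chemokines are small secreted proteins that draw leukocytes along a gradient. Their transcripts were followed for 10 genes, Ccl2, Ccl3, Ccl4, Ccl5, Ccl6, Ccl7, Ccl8, Ccl9, Ccl17 and Ccl22, of 18193 genes with a probe set annotated to a single gene. The 10 genes were chosen by name, with earlier results of these data known. They had 12 such probe sets of 34945 in all, with a pair each for Ccl6 and Ccl9. The arrays held RNA of 12 B-cell lymphomas taken from enlarged lymph nodes of Emu-myc mice, whose transgene drives Myc in B-lineage cells. The ADR group (12 arrays) was treated in culture with Adriamycin, a DNA-damaging drug also called doxorubicin, at 0.05 µg/ml for 5 days, and the untreated group (12 arrays) held cells of the same lymphomas left untreated. Cells of both groups had received Bcl2, an inhibitor of apoptosis, from a retrovirus with puromycin selection, and grew on NIH 3T3 mouse fibroblasts irradiated with 20 Gy as a feeder layer. For senescence induction, the ADR array of lymphoma 1467 is labelled yes and those of the other lymphomas TIS. The comparison asks which chemokine transcripts ADR treatment changed within a lymphoma.

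A chemokine binds G protein-coupled receptors on leukocytes, and several ligands share a receptor. Ccl2 and Ccl7 recruit monocytes through Ccr2. Mouse Ccl8 acts on Ccr8, and Ccl3, Ccl6 and Ccl9 act on Ccr1. Ccl17 and Ccl22, ligands of Ccr4, are known as products of dendritic cells and macrophages. Ccl2 is a known part of the mixture that senescent cells secrete, and stromal fibroblasts make it under inflammatory stimulation, while Ccl6 and Ccl9 are known in mouse mainly from myeloid cells.

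In RefSeq, the members lay in 3 groups of nearby protein-coding genes, not all of them directly adjacent. Ccl2 and Ccl7 were adjacent on chromosome 11, in a cluster where Ccl8 stood between Ccl12 and Ccl1. Ccl5, Ccl9, Ccl6, Ccl3 and Ccl4 followed each other on the same chromosome, and Ccl22 and Ccl17 on chromosome 8 were separated by Cx3cl1. A RefSeq promoter (250 bases before to 50 after the gene's start, build GRCm38.p6) was matched for 6 of the 10 members: Ccl3, Ccl6, Ccl8, Ccl9, Ccl17 and Ccl22. Ccl6 and Ccl9 are shown because they are neighbours whose levels went together across lymphomas. Capitals mark the runs of 10 or more bases that are identical between the 2 promoters when they are aligned, written 5′ to 3′ on the gene's strand.
Ccl6 (chr11:83593038-83593337, − strand): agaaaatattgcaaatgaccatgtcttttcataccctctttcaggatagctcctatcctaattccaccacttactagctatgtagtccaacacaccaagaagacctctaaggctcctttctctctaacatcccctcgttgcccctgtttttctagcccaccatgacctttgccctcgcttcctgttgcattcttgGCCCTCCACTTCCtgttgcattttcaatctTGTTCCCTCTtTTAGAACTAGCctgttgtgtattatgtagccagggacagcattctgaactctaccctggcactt
Ccl9 (chr11:83578587-83578886, − strand): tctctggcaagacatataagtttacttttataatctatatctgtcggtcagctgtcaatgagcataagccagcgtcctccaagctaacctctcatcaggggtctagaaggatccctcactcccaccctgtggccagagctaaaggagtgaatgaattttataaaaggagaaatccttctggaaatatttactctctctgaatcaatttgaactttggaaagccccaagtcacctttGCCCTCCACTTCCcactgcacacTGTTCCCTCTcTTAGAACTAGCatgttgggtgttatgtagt
The pair held 3 such runs, of which the longest had 13 bases, and 34 bases lay in them. The other 14 pairs among the 6 promoters held none.

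Ccl8 and Ccl3 are shown for contrast, since the change of Ccl8 correlated with that of fibroblast markers and the change of Ccl3 did not detectably do so. Capitals mark matches to 4 motifs searched on both strands. They were 1 narrow form of the NF-kB consensus, the AP-1 motif TGANTCA, the PU.1 motif GAGGAA and the C/EBP motif TTNNGNAA.
Ccl8 (chr11:82114935-82115234, + strand): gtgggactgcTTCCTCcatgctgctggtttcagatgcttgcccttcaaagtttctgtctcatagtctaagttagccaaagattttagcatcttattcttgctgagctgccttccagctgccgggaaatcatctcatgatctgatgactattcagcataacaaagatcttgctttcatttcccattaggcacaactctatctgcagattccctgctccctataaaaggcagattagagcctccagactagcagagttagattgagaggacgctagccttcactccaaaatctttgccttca
Ccl3 (chr11:83649329-83649628, − strand): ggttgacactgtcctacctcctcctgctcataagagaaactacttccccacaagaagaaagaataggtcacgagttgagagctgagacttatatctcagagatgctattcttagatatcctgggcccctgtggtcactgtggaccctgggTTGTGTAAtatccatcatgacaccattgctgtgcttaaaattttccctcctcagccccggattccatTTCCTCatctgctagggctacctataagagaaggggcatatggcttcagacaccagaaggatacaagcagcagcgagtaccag
Ccl8 and Ccl3 each held 1 match to the PU.1 letters, as did Ccl17, and 28.3% of 32851 promoters of the same length held one. Ccl3 also held 1 match to the C/EBP letters and Ccl9 held 2, against a share of 40.7% of promoters. Ccl9 held 1 match to the AP-1 letters (7.81% of promoters). The narrow NF-kB form, in which 1 position was free, was in none of the 6 windows (0.411% of promoters). Looser forms of the NF-kB consensus were not searched, so their absence is not shown. Ccl6 and Ccl22 held no match to any of the 4 motifs as searched.

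Ccl2, Ccl3, Ccl4, Ccl6, Ccl7, Ccl8 and Ccl9 rose with ADR, and no member fell. Ccl5, Ccl17 and Ccl22 did not pass the test. The test was limma with the lymphoma as a block, adjusted over 18193 genes by the Benjamini-Hochberg method, and a gene was called at an adjusted p under 0.05. Calls of higher expression were made for 7 of 10 members, where 13.7% of all genes were called higher and 12.8% lower. The median log2 change of the members was 0.90, against -0.01 over all genes. The members were chosen with earlier results known, and their share was not tested against that of all genes. All 10 members entered the test, since no filter on low values was set. Without the pairing by lymphoma 4 members were called higher, against 8.96% of genes, and without lymphomas 403 and 5560 6 members, against 11.4%. On the level of probe sets, 9 of 12 were called higher, against 11.3% of 34945. Levels are log2 expression values, and each change is the ADR minus the untreated value. A fold is given only where both group means lay above 4.47, the highest median of an array, below which values lie near the floor of the scale.

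Genes known as markers of other cell types than B cells were detected in these arrays, and many of them rose with ADR. Of 29 measured fibroblast markers 24 rose and 0 fell, where 13.7% of all genes were called higher and 12.8% lower. Their mean per array ranged from 4.47 to 8.72 in ADR arrays and from 4.11 to 4.92 in untreated arrays. In untreated arrays 18 of the 29 had a group mean at or below 4.47, and 4 did so in both groups (Pdgfrb, Lum, Twist1 and Fap). Single ADR arrays reached 5.49 for Lum and 5.62 for Twist1, which were among the 24 that rose. Fn1, which encodes the matrix protein fibronectin, averaged 10.20 ± 1.86 in ADR arrays and 6.73 ± 1.09 in untreated arrays (SD, n = 12 each). Of 24 macrophage markers 16 rose and 0 fell, and their mean ranged from 6.08 to 8.72 in ADR arrays and from 4.93 to 7.82 in untreated arrays. Lyz1, a lysozyme gene, averaged 13.46 ± 0.93 in ADR arrays and 11.99 ± 2.10 in untreated arrays. Lyz2, a related lysozyme gene, averaged 13.01 ± 1.24 in ADR arrays and 11.24 ± 2.27 in untreated arrays. Whether their probe sets tell these genes apart was not tested. The macrophage markers Mrc1, C1qa, Mertk, Cd163 and Vsig4 had group means at or below 4.47 in both groups.

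Of 10 neutrophil markers Lcn2, Mmp8 and S100a8 rose, by 2.77, 2.46 and 2.20 on the log2 scale, where 13.7% of all genes were called higher. In both groups 6 of the 10 had group means at or below 4.47. The neutrophil marker mean was higher in 12 of 12 lymphomas. Of 8 dendritic cell markers Fscn1 rose and Flt3 fell, shares near the 13.7% of all genes called higher and the 12.8% called lower. Of 12 T and NK cell markers Gzma rose and Klrd1 fell. Both were among the 8 of that list whose group means lay at or below 4.47 in both groups. B cell markers were all above 4.47, with means per array of 8.0 to 10.50 in ADR arrays and 8.98 to 9.99 in untreated arrays. Of these markers 3 of 9 fell, where 12.8% of all genes were called lower. In such bulk RNA, fewer cells of a type and less RNA per cell cannot be told apart. The part of each cell type in the chemokine changes was not tested, since no array held a sorted cell type.

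**Figure D1:**
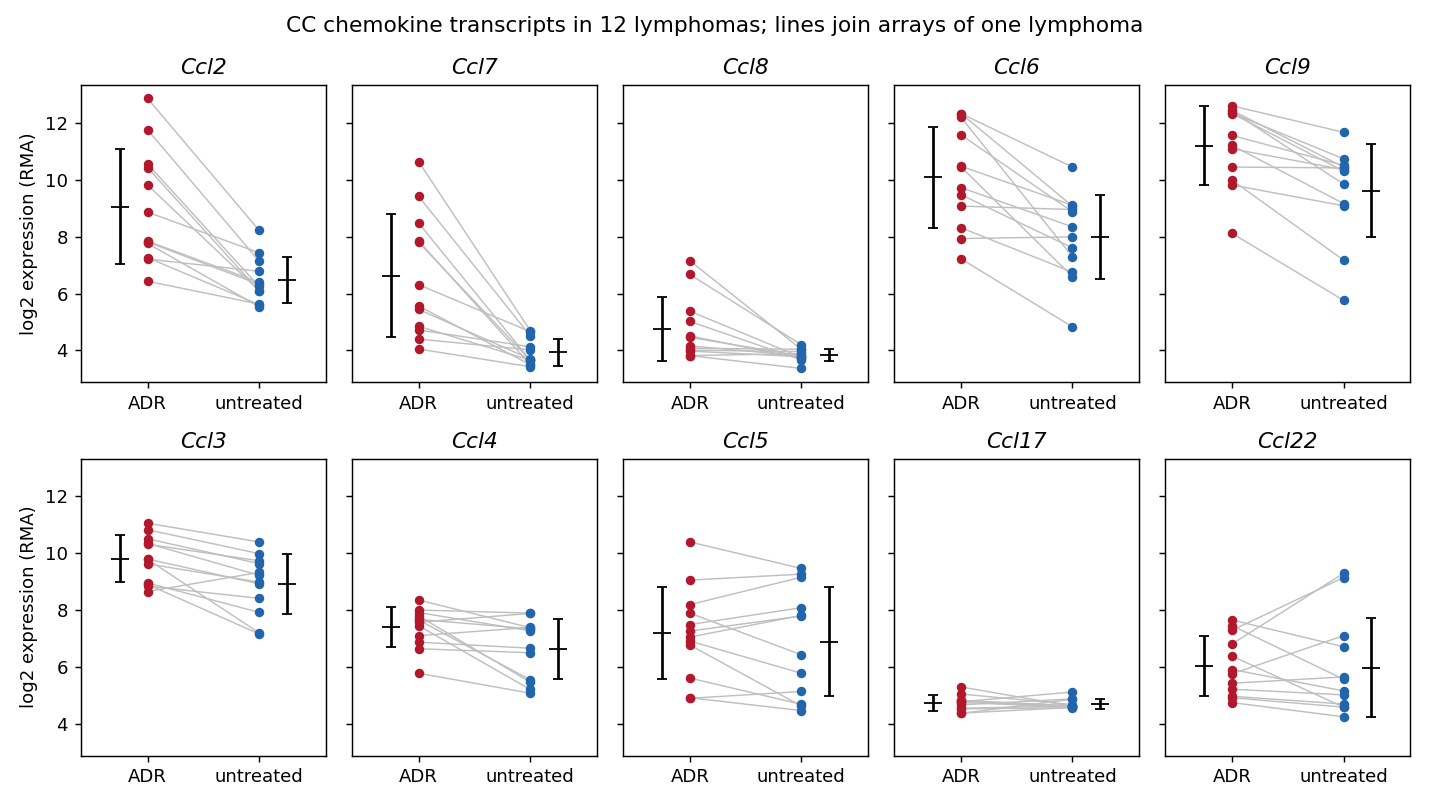
Log2 expression of the 10 CC chemokines in 12 lymphomas, ADR arrays (red) left and untreated arrays (blue) right, with lines joining arrays of a lymphoma and bars for the mean ± SD (n = 12 each). Ccl2, Ccl7 and Ccl9 were higher with ADR in 12 of 12 lymphomas, and Ccl5, Ccl17 and Ccl22 did not pass the test. The ranges of both groups overlapped for all 10 genes.

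Ccl2, the monocyte attractant, rose in every lymphoma. Its lowest, median and highest levels were 6.43, 8.35 and 12.85 in ADR arrays and 5.54, 6.28 and 8.22 in untreated arrays. Of the 12 ADR arrays 6 lay above the highest untreated array, so the groups overlapped in their lower part. The mean was 9.05 ± 2.01 in ADR arrays and 6.46 ± 0.81 in untreated arrays (SD, n = 12 each), a 6.01-fold difference (log2 change 2.59, SE 0.42, 95% interval 1.69 to 3.48, limma adjusted p = 0.000494). A change this consistent in sign was rare: 3.02% of all genes were higher with ADR in 12 of 12 lymphomas. The size differed widely between lymphomas, from 0.42 in lymphoma 1467 to 4.64 in lymphoma 403.

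Ccl7, the neighbour of Ccl2 and a ligand of the same receptor, was near the floor without treatment. Its levels were 4.05, 5.93 and 10.63 (lowest, median and highest) in ADR arrays and 3.43, 3.68 and 4.70 in untreated arrays. Of the 12 ADR arrays 10 lay above the highest untreated array. The mean was 6.62 ± 2.15 in ADR arrays and 3.93 ± 0.47 in untreated arrays, with a log2 change of 2.69 (SE 0.51, adjusted p = 0.00165) and higher values in 12 of 12 lymphomas. No fold is given, since the untreated level is a floor value and the log2 change is compressed there. Changes ran from 0.38 in lymphoma 5766 to 5.93 in lymphoma 403.

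Ccl8, a ligand of Ccr8 in mouse, was also near the floor in untreated arrays and low in most ADR arrays. It had 3.82, 4.31 and 7.15 in ADR arrays and 3.37, 3.81 and 4.20 in untreated arrays. There were 6 ADR arrays above the highest untreated one. The log2 change was 0.92 (SE 0.27, adjusted p = 0.0211), with higher values in 11 of 12 lymphomas. It was 3.11 in lymphoma 403 and -0.07 in lymphoma 7050, and the estimate moved to 0.54 (adjusted p = 0.0324) without lymphomas 403 and 5560, the 2 with the largest fibroblast marker changes. Under the same omission Ccl2 was at 2.18 and Ccl7 at 2.15, both still called.

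The changes of Ccl2 and Ccl7 fell into 2 sets of lymphomas. In lymphomas 403, 2581, 3594, 3769 and 5560 Ccl2 changed by 3.71 to 4.64 and Ccl7 by 4.14 to 5.93. In the other 7 lymphomas Ccl2 changed by 0.42 to 2.23 and Ccl7 by 0.38 to 2.06, so no lymphoma lay between the sets for either gene. For Ccl8 the sets overlapped, with 0.66 to 3.11 in the 5 and -0.07 to 0.79 in the 7. The same 5 lymphomas had the 5 largest changes of the fibroblast marker mean, 2.60 to 4.13, against -0.06 to 2.07 in the other 7. For the macrophage marker mean the sets overlapped, with 0.48 to 2.64 in the 5 and 0.42 to 1.66 in the 7. The sets were read from the Ccl2 values themselves and were not tested against each other.

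**Figure D2:**
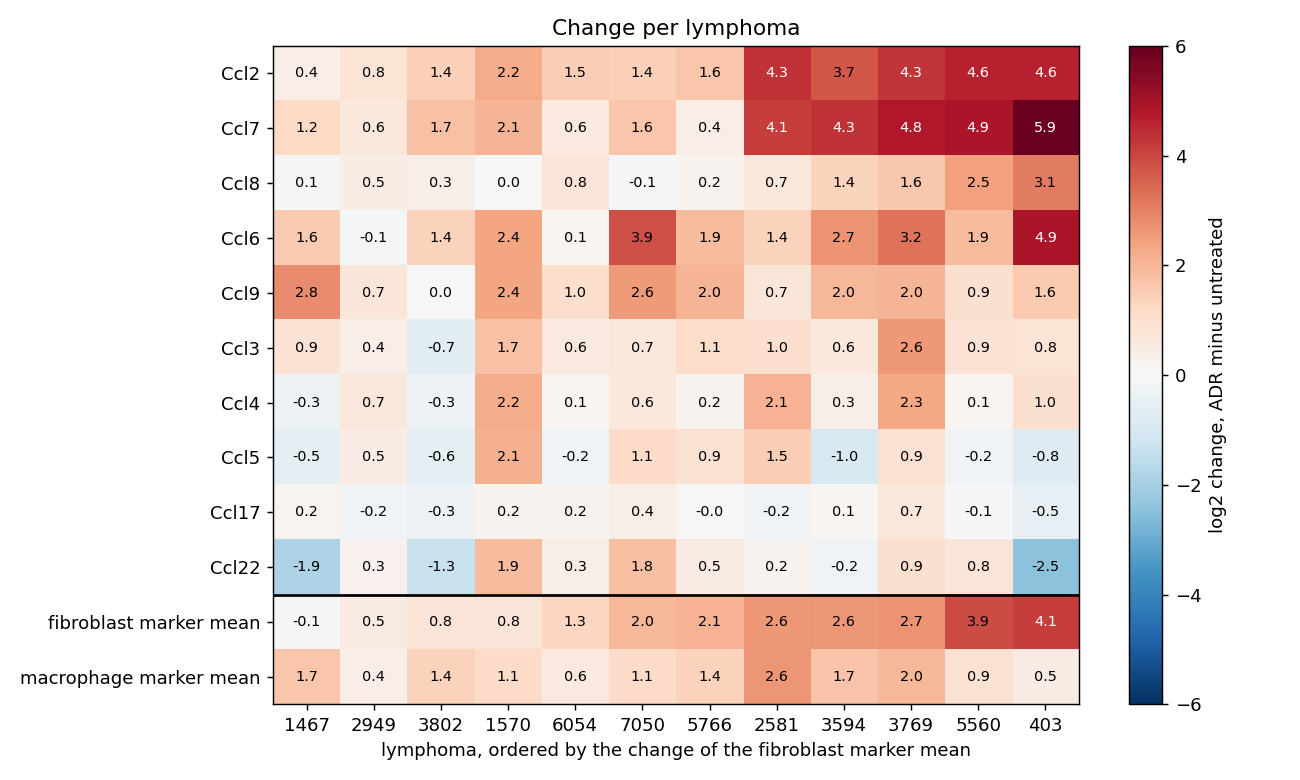
Log2 change (ADR minus untreated) of each CC chemokine and of both marker means in each of 12 lymphomas, ordered from the smallest to the largest change of the fibroblast marker mean. Ccl2 and Ccl7 changed by 3.71 or more in the 5 lymphomas on the right and by 2.23 or less in the 7 on the left.

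Ccl6 and Ccl9, ligands of Ccr1 that are adjacent in the genome, were expressed before treatment and rose with ADR. Ccl6 had 7.22, 10.09 and 12.32 (lowest, median and highest) in ADR arrays and 4.83, 8.16 and 10.44 in untreated arrays. The mean was 10.09 ± 1.77 in ADR arrays and 7.99 ± 1.49 in untreated arrays (SD, n = 12 each), 4.29-fold higher (log2 change 2.10, SE 0.37, adjusted p = 0.00103). The groups overlapped, with 6 ADR arrays above the highest untreated array. Ccl6 was higher in 11 of 12 lymphomas, from -0.05 in lymphoma 2949 to 4.90 in lymphoma 403. Its second probe set gave a log2 change of 2.16 (SE 0.37, adjusted p = 0.000902 over all probe sets).

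Ccl9 had 8.11, 11.37 and 12.59 in ADR arrays and 5.76, 10.33 and 11.66 in untreated arrays. The upper 5 ADR arrays lay above the highest untreated array, and the rest overlapped with the untreated range. The mean was 11.19 ± 1.39 in ADR arrays and 9.62 ± 1.65 in untreated arrays, 2.97-fold higher (log2 change 1.57, SE 0.23, adjusted p = 0.000226), with higher values in 12 of 12 lymphomas. Lymphoma 3802 changed by 0.03 only and lymphoma 1467 by 2.82. Lymphoma 1467 thus had the largest change of Ccl9 and the smallest change of Ccl2 and of the fibroblast marker mean. The second probe set of Ccl9 gave 1.52 (SE 0.24, adjusted p = 0.000537).

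Ccl3 and Ccl4, inflammatory ligands that activated B cells, macrophages and other leukocytes can secrete, rose less. Ccl3 had 8.66, 9.79 and 11.06 in ADR arrays and 7.17, 9.11 and 10.40 in untreated arrays. Only 3 ADR arrays lay above the highest untreated one. The log2 change of Ccl3 was 0.89 (SE 0.20, adjusted p = 0.00511), or 1.85-fold, with higher values in 11 of 12 lymphomas. Lymphoma 3802 was the exception at -0.66, and lymphoma 3769 had the largest change, 2.58.

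Ccl4 had 5.79, 7.62 and 8.36 in ADR arrays and 5.09, 6.98 and 7.90 in untreated arrays, with 3 ADR arrays above the highest untreated one. Its log2 change was 0.76 (SE 0.25, adjusted p = 0.0369), or 1.70-fold, and 10 of 12 lymphomas were higher. This call was lost without lymphoma 1570, 2581, 2949, 3769, 7050 or 403, where estimates ran from 0.62 to 0.77. It was also lost with arrays centred on their medians (0.65, adjusted p = 0.0522), a scaling that moved the median change of all genes to -0.12 and called 6 members, against 9.89% of genes.

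Ccl5, Ccl17 and Ccl22 did not pass the test. Ccl5, a T cell and monocyte attractant, had 4.91, 7.16 and 10.40 in ADR arrays and 4.48, 7.12 and 9.47 in untreated arrays, so the groups covered nearly the same range. Its log2 change was 0.31 (SE 0.26, 95% interval -0.25 to 0.87, adjusted p = 0.443), and 6 of 12 lymphomas were higher, from -0.96 in lymphoma 3594 to 2.14 in lymphoma 1570. Ccl17 was low in both groups, with 4.38, 4.77 and 5.31 in ADR arrays and 4.58, 4.63 and 5.13 in untreated arrays. Its log2 change was 0.04 (95% interval -0.16 to 0.24, adjusted p = 0.828).

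Ccl22 had 4.76, 5.85 and 7.66 in ADR arrays and 4.26, 5.37 and 9.30 in untreated arrays. Untreated lymphomas 403 and 1467 stood apart at 9.30 and 9.15, above the next at 7.11. In these 2 the change was -2.48 and -1.85, while lymphomas 1570 and 7050 changed by 1.88 and 1.79. The mean change was 0.06 (SE 0.35, 95% interval -0.69 to 0.82, adjusted p = 0.925). The intervals leave room for a change in either direction for these 3 genes.

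Array names in the descriptions of treated arrays used "DOX" for 7 lymphomas and "sen" for 5, which was treated as a possible batch. Within the DOX set Ccl2 changed by 2.12, Ccl7 by 2.02, Ccl8 by 0.67, Ccl6 by 1.87 and Ccl9 by 1.49, and all 5 were called (9.06% of genes called higher). Within the sen set Ccl7 at 3.64, Ccl9 at 1.68 and Ccl3 at 1.07 were called (1.86% of genes). Ccl2 at 3.24 (adjusted p = 0.0532) and Ccl6 at 2.42 (adjusted p = 0.0581) missed the threshold there. The difference between the sets was tested as an interaction, and limma called 0 of 18193 genes. No member reached an unadjusted p under 0.05, with the lowest at 0.123. The largest difference, DOX minus sen, was -1.62 for Ccl7 (adjusted p = 0.798).

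To describe which members followed fibroblast or macrophage genes, each member was correlated with the mean of either marker list across the 12 lymphomas. This was done for the change, the untreated level and the ADR level, in 60 relations with two-sided permutation tests adjusted together. Across all 12, the Ccl2 change had Pearson r = 0.89 (permutation p = 7e-05, adjusted p = 0.0016) and Spearman rho = 0.91 (p = 0.00012, adjusted p = 0.0045) with the fibroblast marker change. Ccl8 had r = 0.84 (p = 0.00052, adjusted p = 0.0052) and rho = 0.75 (p = 0.00702, adjusted p = 0.0301). Ccl7 had r = 0.83 (p = 0.00122, adjusted p = 0.00732) and rho = 0.74 (p = 0.00762, adjusted p = 0.0305). Of 18164 genes outside the list, 4.32% had an r of 0.80 or more, and so did these 3 of 10 members.

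These relations missed the threshold once lymphomas were left out. Leaving out lymphomas 403 and 1467, whose fibroblast marker changes lay farthest from the median, r was 0.84 for Ccl2, 0.77 for Ccl7 and 0.76 for Ccl8, each with an adjusted p of 0.0811. For Ccl2 and Ccl7, r over all 12 spans the gap between the 5 lymphomas and the 7. Within the DOX set r was 0.83 for Ccl2 (exact permutation p = 0.0256), 0.70 for Ccl7 (p = 0.0891) and 0.53 for Ccl8 (p = 0.227). The sen set, with 5 lymphomas, was taken as too small for an r and is described by its values. From lymphoma 1467 over 1570, 2581 and 5560 to 403, the fibroblast marker change there was -0.06, 0.79, 2.60, 3.92 and 4.13 and the Ccl2 change 0.42, 2.23, 4.32, 4.60 and 4.64, in the same order. Ccl7 kept that order with 1.19, 2.06, 4.14, 4.89 and 5.93, and Ccl8 had 0.05, 0.04, 0.66, 2.47 and 3.11.

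The other members did not follow the fibroblast change detectably over 12 lymphomas. Ccl6 had r = 0.60 and rho = 0.65 (adjusted p = 0.127 and 0.0828). Ccl3 had r = 0.25, Ccl4 0.21, Ccl22 -0.03, Ccl9 -0.08, Ccl5 -0.15 and Ccl17 -0.18. Within the DOX set r was higher for several of them, 0.84 for Ccl9 (exact permutation p = 0.0252), 0.79 for Ccl6 (p = 0.0433), 0.75 for Ccl17 (p = 0.052) and 0.70 for Ccl3 (p = 0.0591), and none passed after adjustment. A difference between the naming sets in these relations was not tested. With the change of the macrophage marker mean, all 10 members had r between -0.23 and 0.36, and 0 passed after adjustment or at an unadjusted p under 0.05. Within the DOX set, Ccl2 had r = 0.83, Ccl7 0.80 and Ccl6 0.75 with macrophage markers, where the changes of both marker means were themselves correlated (r = 0.78, exact permutation p = 0.0462). Over all 12 lymphomas that correlation was 0.02.

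**Figure D3:**
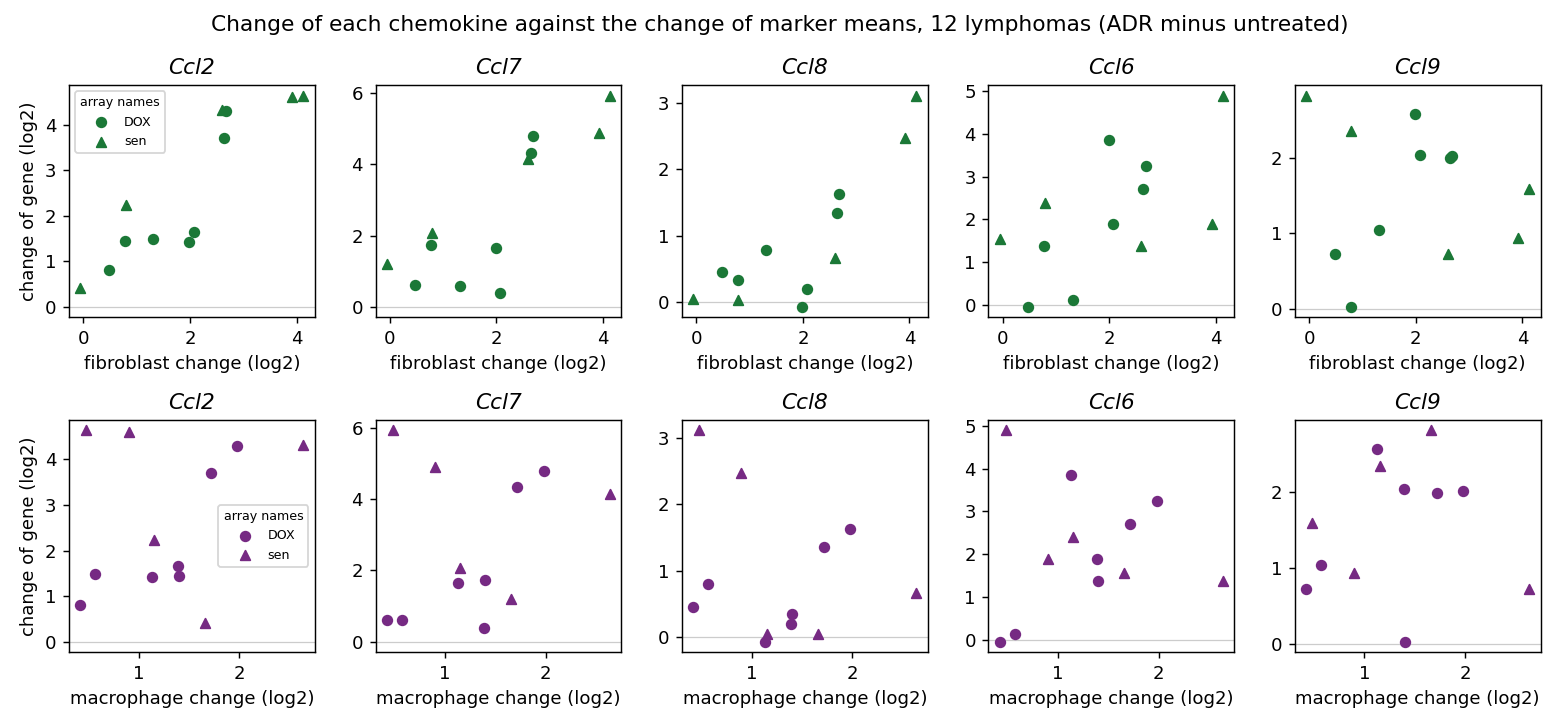
Log2 change (ADR minus untreated) of 5 CC chemokines against the change of the fibroblast marker mean (top) and of the macrophage marker mean (bottom), 1 point per lymphoma, circles for the DOX and triangles for the sen array names. Ccl2, Ccl7 and Ccl8 have r of 0.89, 0.83 and 0.84 in the top row, and no member passed in the bottom row.

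The levels gave other relations than the changes. In untreated arrays Ccl9 had r = 0.89 (permutation p = 8e-05, adjusted p = 0.0016) and rho = 0.87 (adjusted p = 0.0092) with the macrophage marker mean. Only 0.105% of 18169 genes outside the list had an r as high. Untreated lymphomas 1570 and 1467 were lowest for both Ccl9 and the macrophage mean, and without them r was 0.77 (adjusted p = 0.0811). Within the DOX set it was 0.72 (exact permutation p = 0.077). Ccl7, near the floor, also passed at r = 0.72 (rho = 0.83, adjusted p = 0.043 and 0.0163), but not with arrays centred on their medians (r = 0.67). Ccl3 had r = 0.66 (adjusted p = 0.0846) and rho = 0.83 (adjusted p = 0.0163). Ccl6 had r = 0.66 (adjusted p = 0.0832), and 0.30 without lymphomas 1570 and 1467. With the fibroblast marker mean no untreated member level passed, and Ccl2 had r = 0.06.

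In ADR arrays 5 members passed with the fibroblast marker mean: Ccl2 (r = 0.89), Ccl8 (0.87), Ccl7 (0.85), Ccl6 (0.83) and Ccl9 (0.78), with adjusted p from 0.0016 to 0.0143. Of 18164 genes outside the fibroblast list, 5.24% had an r of 0.80 or more, and 6.06% had an r as high as that of Ccl9. Ccl9 (r = 0.84, rho = 0.76) and Ccl6 (r = 0.83, rho = 0.80) passed with the macrophage marker mean as well, with adjusted p of 0.00634 and 0.00732 for r. By rho alone Ccl2 (rho = 0.79, adjusted p = 0.0211) and Ccl5 (rho = 0.77, adjusted p = 0.0226) passed too. Of 18169 genes outside the macrophage list, 1.16% had an r of 0.80 or more. In these arrays both marker means were correlated across lymphomas (r = 0.68, rho = 0.71, permutation p = 0.0156 for r), so a level that follows one list partly follows the other. Without the 2 lymphomas farthest from the median marker mean, no relation passed after adjustment.

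**Figure D4:**
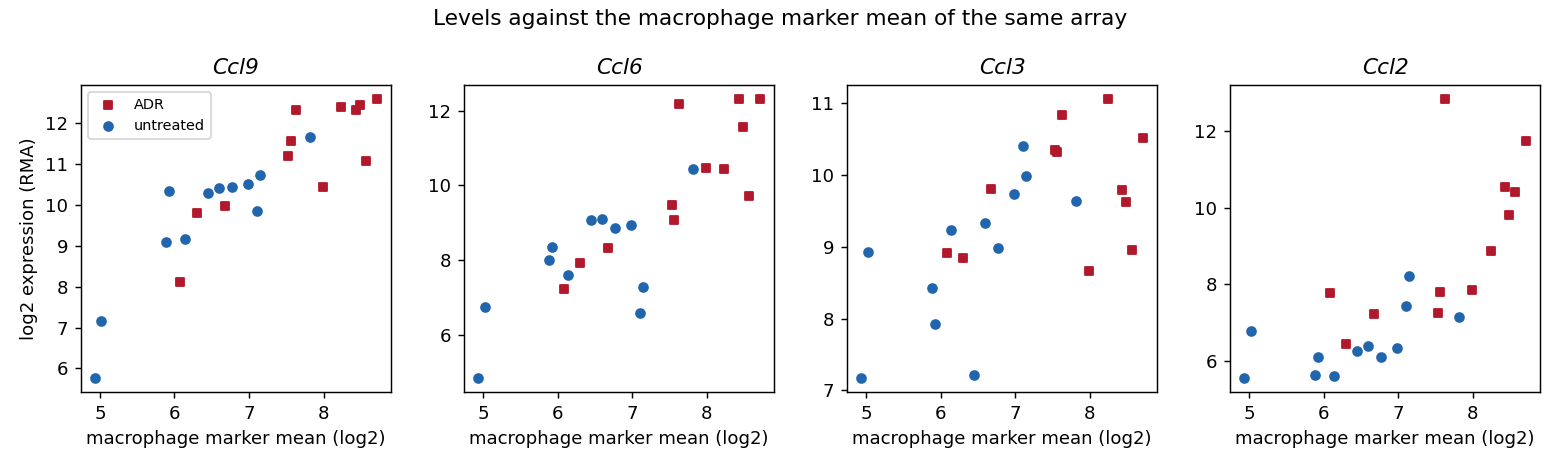
Log2 expression of Ccl9, Ccl6, Ccl3 and Ccl2 against the macrophage marker mean of the same array, red squares for ADR and blue circles for untreated arrays. In untreated arrays r was 0.89 for Ccl9, 0.66 for Ccl6 and Ccl3 and 0.58 for Ccl2.

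The paired fit was repeated with the marker means as covariates, which estimates the ADR change at an equal marker level. The macrophage mean rose by 0.42 or more in 12 of 12 lymphomas, so an equal level lay outside the observed changes. For the fibroblast mean, which rose in 11 of 12, it lay at their lower end. With the fibroblast mean, Ccl9 stayed at 1.68 (SE 0.42, adjusted p = 0.0323) and was the 1 member called, where 2.46% of genes were called higher. On the level of probe sets, 1 of the 12 of the members was called in that fit, so the pair for Ccl9 did not pass together. Ccl2 was then at 0.50 (adjusted p = 0.495), Ccl7 at 0.30, Ccl8 at -0.34 and Ccl6 at 0.84 (adjusted p = 0.456). With the macrophage mean instead, Ccl2 was at 1.75 (adjusted p = 0.464), Ccl7 at 1.80, Ccl8 at 1.39, Ccl6 at 1.95 and Ccl9 at 1.37 (adjusted p = 0.303). Ccl3 was at 0.43 and Ccl4 at 0.08 in that fit. It called 0 of 18193 genes with limma, with 2372 at an unadjusted p under 0.05, 3 members among them. With both means, Ccl9 was at 1.47 (adjusted p = 0.362), Ccl6 at 0.72, Ccl2 at -0.28 and Ccl7 at -0.52. With both means the standard error was larger for each of the 10 members than without a covariate, for Ccl9 0.64 against 0.23. A missed threshold there does not show that a gene was unchanged.

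**Figure D5:**
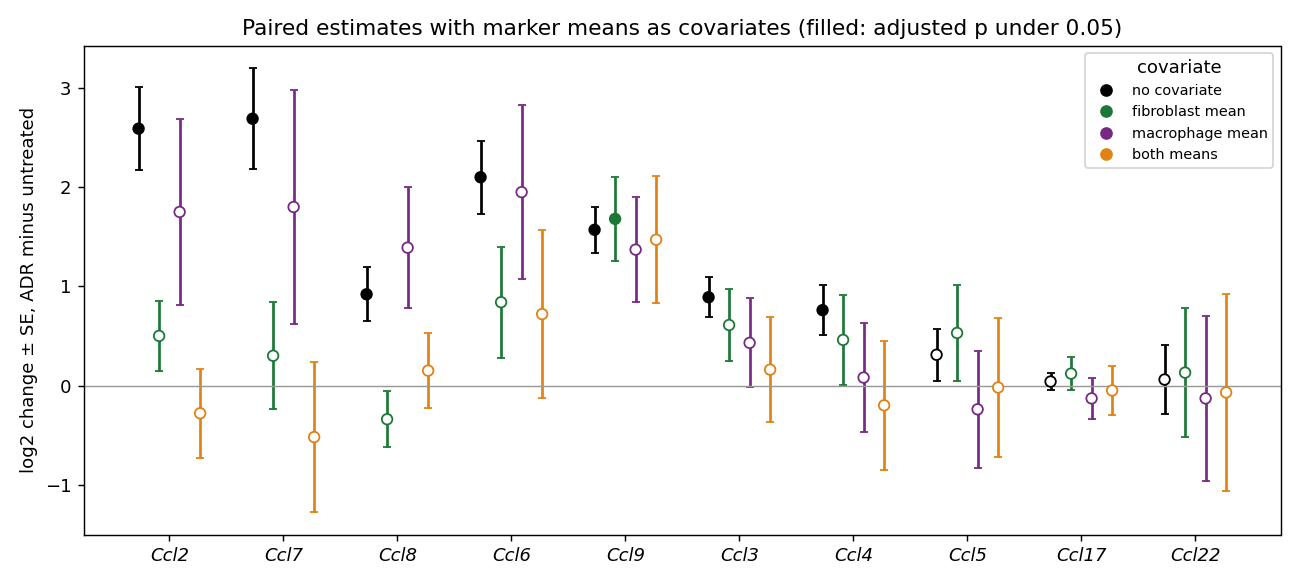
Estimated log2 change ± SE of each CC chemokine (ADR minus untreated, n = 12 lymphomas) with no covariate, with the fibroblast marker mean, the macrophage marker mean or both, filled where the adjusted p was under 0.05. With the fibroblast mean Ccl2 was at 0.50 and Ccl9 at 1.68, and Ccl9 alone was called, by its probe set of highest mean.

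Members also moved with each other. All 45 pairs were compared for the change, the untreated level and the ADR level, 135 relations in all, chosen after seeing the data, and 18 passed, each positive. For the change, Ccl2 and Ccl7 had r = 0.94 (rho = 0.80, adjusted p = 0.00324 and 0.0427) over 12 lymphomas. Ccl7 and Ccl8 had 0.84 and Ccl2 and Ccl8 0.80. Ccl3 and Ccl4 had r = 0.74 (adjusted p = 0.0218) with rho = 0.50, and Ccl5 and Ccl22 r = 0.75 (rho = 0.77, adjusted p = 0.0341 and 0.0584). Ccl6 and Ccl9 did not pass for the change (r = 0.49, adjusted p = 0.277). Their levels had r = 0.84 in untreated arrays (rho = 0.66, adjusted p = 0.00829 and 0.107) and 0.88 in ADR arrays. Without lymphomas 1570 and 5560 the untreated value was 0.58.

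The genes whose change was most like each member's were taken from 9089 genes above the median level, by Pearson r over 12 lymphomas. Closest to Ccl2 were Dcn (0.98), which encodes the matrix proteoglycan decorin and is a fibroblast marker of the list used, Timp1 (0.96), an inhibitor of matrix metalloproteinases, and Cxcl1 (0.95), a neutrophil attractant. Closest to Ccl7 were Lrp11 and Phlda1 (0.95 each) and Plod2 (0.94), a collagen-modifying enzyme. Closest to Ccl8 were Maoa (0.97), a monoamine oxidase, Gas1 and Fmnl2 (0.95 each). Among the 50 most like Ccl2, 4 were fibroblast markers, as were 3 for Ccl7 and 1 for Ccl8, of 11 that were eligible, and 0 were macrophage markers.

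Closest to Ccl6 were Mmp9, a secreted gelatinase, Pqlc3 and Ccndbp1 (0.89 each). Closest to Ccl9 were Ino80c and Msn (0.88 each), and Ccr1 (0.87), its own receptor. Among the 50 most like Ccl9, 2 were macrophage markers of 15 eligible and 0 were fibroblast markers, and the same counts held for Ccl17, which did not pass the test. The highest r was 0.83 for Ccl3 (Eogt), 0.84 for Ccl4 (Tbc1d22a), 0.83 for Ccl5 (2310010J17Rik), 0.89 for Ccl17 (Slc6a12) and 0.85 for Ccl22 (Gucd1). Each of these values is the highest of 9089 and is a description only.

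Of 13 measured CC receptor genes, Ccr1 rose and Ccr7 and Ackr2 fell, and their median change was -0.13. The shares, 1 and 2 of 13, lie near the 13.7% of all genes called higher and the 12.8% called lower. The count of 3 called receptors was 7 with arrays centred on their medians, 5 with quantile normalization and 1 without the pairing. Ccr1, the receptor of Ccl3, Ccl6 and Ccl9, had 7.08, 8.98 and 10.59 in ADR arrays and 5.21, 6.65 and 8.58 in untreated arrays. In all, 8 ADR arrays lay above the highest untreated array. It was 4.10-fold higher (log2 change 2.03, SE 0.31, adjusted p = 0.000349) and higher in 11 of 12 lymphomas, with lymphoma 3802 at -0.15, the same lymphoma in which Ccl9 changed least. Ccr2, the receptor of Ccl2 and Ccl7, had a log2 change of 0.57 (SE 0.36, adjusted p = 0.286), and was chosen after its values were seen.

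Ccr7, which guides lymphocytes to lymph nodes, averaged 7.28 ± 1.55 in ADR arrays and 8.21 ± 1.14 in untreated arrays (SD, n = 12 each), 1.91-fold lower (log2 change -0.93, SE 0.23, adjusted p = 0.00817). Ackr2, a scavenger receptor that takes up CC chemokines, averaged 6.61 ± 1.18 in ADR arrays and 7.46 ± 1.52 in untreated arrays, 1.80-fold lower (log2 change -0.85, SE 0.27, adjusted p = 0.0312). Ccr3, Ccr4, Ccr8, Ccr9 and Ackr4 had group means at or below 4.47 in both groups, so the receptors of Ccl8 and of Ccl17 and Ccl22 were near the floor. With the fibroblast mean as a covariate 0 of the 13 receptors were called by limma, with 3 at an unadjusted p under 0.05.

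Of 8 other CC ligand genes, 1 rose, a share near the 13.7% of all genes called higher, and their median change was 0.14. Ccl24, an eosinophil attractant, averaged 5.79 ± 0.44 in ADR arrays and 5.46 ± 0.25 in untreated arrays (log2 change 0.34, SE 0.11, adjusted p = 0.0308). It was higher with ADR in 9 of 12 pairs. No ligand of this list was called without lymphoma 2581, 3769, 5560, 5766 or 6054, or without the pairing. Ccl1, Ccl11, Ccl12, Ccl27a and Ccl28 had group means at or below 4.47 in both groups. Ccl12, a neighbour of Ccl8 in RefSeq, was an exception in 1 array: it reached 6.75 in the ADR array of lymphoma 403, where Ccl7 and Ccl8 also changed most.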

How the data were processed

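RNA of 12 lymphomas, each treated with ADR and untreated, was measured on 24 Affymetrix arrays. The authors deposited 1 log2 value per probe set and array, made with RMA and Partek per the submitters' processing notes, of which no version or setting is given in the sources used here. RMA compresses changes of weak probe sets. Array medians lay between 4.38 and 4.47. Of 45101 probe sets, 34945 had 1 gene symbol in the platform annotation, 932 had several, 9160 none, and 64 were controls. For each of 18193 genes the single-gene probe set of highest mean was used. The files name no genome build.

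Groups and lymphoma numbers came from the sample titles, and the series' design text states matched pairs. Deviations from the group means correlated at 0.257 to 0.589 within pairs, above 0.1 in 12 of 12. In 10 of 12 lymphomas the untreated array correlated highest with the ADR array of its own lymphoma. The main test was limma 3.58.1 (R 4.3.3) with a block per lymphoma, and p-values measure the spread between lymphomas. The number of arrays limits the precision. Correlations used 100000 permutations, or all 5040 orderings in the 7 lymphomas of the DOX set (Python 3.11.15, numpy 2.4.6, scipy 1.17.1, pandas 2.3.3; figures matplotlib 3.10.9). On simulated data with 18193 genes and 200 changes of ADR against untreated, the fit recovered 49.3% of log2 changes of 0.5, 88.1% of 1 and 98.5% of 2, with 10 false calls. The simulated noise was independent between genes, and the main test on the real data called 4829 genes. These rates therefore need not hold for the main test. Alternatives covered the block, scaling, probe set choice, a low-level filter, variances, marker covariates, naming sets and omitted lymphomas.

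Members and lists were chosen with earlier results of these data known. Genes named are the members; of other ligands and receptors the 3 called genes with the largest change each way; of each marker list the 3 with the highest mean and the 2 with the largest change; and per member the 3 genes most alike in change. Others named were chosen after their values were seen. The listed genes Ccl19, Ccl21a, Ccl21b, Ccl26, Fbn1, Ly6g, Retnlg and Clec9a were not analysed here.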

Additional observations from a re-analysis of the deposited data

How the results depend on the processing

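Arrays limit these results through the number of lymphomas and through the floor of the log2 scale, which touches Ccl7, Ccl8 and Ccl17. Calls refer to limma at an adjusted p under 0.05. Without the replicate block that pairs arrays by lymphoma, 3210 genes, 4 members (Ccl2, Ccl6, Ccl7 and Ccl8), 5 member probe sets, 1 receptor and 0 other ligands (2 at an unadjusted p under 0.05) were called. With the fibroblast covariate, 1079 genes, 1 member, 1 probe set and 0 receptors (3 at an unadjusted p under 0.05) or other ligands (0) were called, and Ccl8 turned to -0.34. With the macrophage covariate, 0 genes (2372 at an unadjusted p under 0.05), 0 members (3), 0 probe sets (5), 0 receptors (1) and 0 other ligands (1) were called, and Ccl5 was at -0.24 and Ccl17 and Ccl22 at -0.13 each. With both, all counts were 0 (2264 genes, 1 member, 1 probe set, 2 receptors and 1 other ligand at an unadjusted p under 0.05), with Ccl2 at -0.28, Ccl4 at -0.20, Ccl5 at -0.02, Ccl7 at -0.52, Ccl17 at -0.05 and Ccl22 at -0.07. Within the sen set 811 genes, 3 members, 3 probe sets, 1 receptor and 0 other ligands (1) were called, with Ccl17 at -0.07 and Ccl22 at -0.30. Arrays centred on their medians gave 7 receptors and 0 other ligands (0), Ccl17 at -0.08 and Ccl22 at -0.05, and 29.6% of all calls were higher, against 51.8% in the main result. Quantile normalization gave 5 receptors and 0 other ligands (2), Ccl17 at -0.05 and Ccl22 at -0.02. Trended variances and the mean of probe sets each gave 2 other ligands.

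Leaving out 1 lymphoma each gave 3966 to 5165 genes, 6 to 7 members, 7 to 9 probe sets, 2 to 4 receptors and 0 to 2 other ligands. Ccl17 ranged from -0.02 to 0.09 (below 0 without 3769), and Ccl22 from -0.10 to 0.30 (below 0 without 1570, 3769 or 7050). Of relations with fibroblast and macrophage markers, 8 and 4 passed. With the median of the markers 8 and 7 passed, and without the 2 farthest lymphomas or within the DOX set 0 and 0. The cause of these shifts was not tested. In all, 284 recomputed values kept their direction and side of the threshold or moved by less than the limit set, 33 lost a call, 44 counts moved by over 1.5 times and 20 values turned direction.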

Other observations

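In ADR arrays 9 of the 45 pairs of members passed, more than for the change (5) or the untreated level (4); the 3 counts were not compared by a test. The ADR levels of Ccl2 and Ccl7 had r = 0.99 (rho = 0.94, permutation p = 1e-05 for r, the smallest that 100000 resamples can give), and 0.98 without lymphomas 403 and 5560. Ccl4, an inflammatory ligand, had r = 0.81 and rho = 0.93 with Ccl7 in ADR arrays and r = 0.80 with Ccl2. With the fibroblast marker mean, its ADR level had r = 0.60 and rho = 0.69 (permutation test, adjusted p = 0.127 and 0.0575). The change of Ccl4 was not detectably related to the fibroblast marker change (r = 0.21). Ccl3 and Ccl7 had r = 0.77 in untreated arrays (rho = 0.84, adjusted p = 0.0341 and 0.0283), where Ccl7 lay near the floor.

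Of 10 neutrophil markers 3 rose, where 13.7% of all genes were called higher. Lcn2, an iron-binding protein of granules, rose with a log2 change of 2.77 (SE 0.31, limma adjusted p = 4.35e-05), and Mmp8, a neutrophil collagenase, with 2.46 (SE 0.47, adjusted p = 0.00174), both higher in 12 of 12 lymphomas. S100a8, a calcium-binding protein of myeloid cells, rose by 2.20 (SE 0.46, adjusted p = 0.00311). The others were Camp at 0.23, which did not pass, and S100a9, Ngp, Ltf, Elane, Mpo and Cxcr2, near the floor in both groups with log2 changes of -0.09 to 0.09. Fscn1, an actin-bundling protein of mature dendritic cells that fibroblasts also express, rose by 2.33 (SE 0.47, adjusted p = 0.00227), while Ccl17 and Ccl22, which dendritic cells are known to make, did not pass the test. Flt3 fell by 0.57 (SE 0.12, adjusted p = 0.00356).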
